A study of Mus musculus with 22 samples.

Results

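Chromatin accessibility was measured by ATAC-seq at the loci of 9 genes for adipogenic transcription factors, Cebpa, Cebpb, Cebpd, Ebf1, Ebf2, Klf15, Zfp423, Nfia and Nfib. They were taken as a named list of regulators of fat cell formation other than Pparg, and they are 9 of 21911 protein-coding genes. No measured value was used in the choice, though earlier results of these data were known when it was made. A locus was the gene span of the GENCODE vM21 annotation on build GRCm38 with 20 kb added on each side, and every deposited peak that overlapped it was read in 22 libraries. The 9 loci held 56 of the 104657 union regions, each of which is a stretch formed by merging peaks that overlap in any library. The libraries came from epididymal fat of AdipoERCre x NuTRAP mice on a background that the labels spell C576BL6, in which tamoxifen switches on a Cre driven by the adiponectin promoter and thereby a biotin tag on adipocyte nuclei. All groups, controls included, carried both alleles and had received tamoxifen before the diets began, and the labelled nuclei of 1 animal made 1 library.

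Group C (n = 3) was on chow and 18 weeks old, and group H (n = 3) was of the same age after 12 weeks of high-fat diet. Group CC_s (n = 3) was on chow and 26 weeks old, and group HC (n = 3), the weight loss arm, had the same age and spent 12 weeks on the high-fat diet before 8 on chow. In the longer course, CC_l (n = 2) was on chow and 31 weeks old and HH (n = 3) had 25 weeks of high-fat diet at that age, while CCC (n = 2) was on chow and 39 weeks old and HHC (n = 3) went from 25 weeks on the high-fat diet to chow for the last 8. By the study's methods the control diet was a low-fat chow during the feeding period, and mice of both arms were moved to a standard chow for the weight loss period. The comparisons ask which sites differ in obesity and which of them still differ from age-matched controls after weight loss.

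Adipogenesis runs as a cascade. C/EBPβ and C/EBPδ are induced first and switch on C/EBPα and PPARγ, which then hold the adipocyte program in place. EBF1 and EBF2 and the nuclear factor I proteins NFIA and NFIB bind many of the same enhancers, KLF15 is a zinc finger factor that favours lipid and glucose uptake genes, and ZFP423 commits progenitors to the fat lineage and holds white adipocytes back from a thermogenic fate. Accessibility at a locus is a property of its chromatin and is not a measure of the amount of mRNA or protein.

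The signal of the Nfia, Ebf1 and Ebf2 loci was lower and that of the Zfp423 locus higher in H than in C, with an adjusted p under 0.05. That rule was met by 15.5% of all loci and by 25.1% of loci of at least 200 kb, the class of these genes. Only the Nfia call held under every alternative run. The Ebf1 call was lost with the maximum signal and in the joint fit. The Ebf2 and Zfp423 calls were lost in most of the fits that left out a library. Over both diet durations together, Nfia stayed lower and Zfp423 higher in the obese mice at that threshold, against 10.2% of all loci, though neither did with the maximum signal. None of the 9 loci passed that threshold after weight loss with all libraries in the fit, against 3.09% of all loci, though 4 did without HHC 2, against 5.04%. The Ebf1, Ebf2, Klf15, Nfia and Nfib loci were below the controls at an unadjusted p under 0.05 over both durations together, against 22.7% of all loci. With all libraries in the fits, the Cebpa, Cebpb and Cebpd loci passed neither threshold in any comparison. Without 2 libraries that stood apart, HC 3 and HHC 3, none of the loci passed the adjusted threshold over both durations, against 3.31% of all loci. The difference went from -0.97 to -0.40 for Ebf1 and from -0.58 to -0.31 for Ebf2. It went from -0.51 to -0.31 for Nfia and from -0.36 to -0.22 for Nfib. Klf15 went from -0.21 to -0.20 and no longer met the unadjusted threshold in that combined contrast, and Cebpa met it with a higher signal. The fit without HHC 2 had kept both of these libraries.

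Of the 36 member regions tested in H against C, 5 were called, against 8.28% of all regions. These 5 are shown here by their sequence on the plus strand of GRCm38, read from the RefSeq copy of that build. The windows are short and centred where the coverage maxima of the most libraries lay together. A sixth window, from an intron of Nfib, is shown because it held the most motif matches among the member regions and was chosen after its letters were seen. Capitals mark matches on either strand to the C/EBP motif TTGCNNAA, the EBF motif CCCNNGGGA, the NFI half-site TTGGCA and the KLF motif CCNCACCC.
Ebf2 region 10, chr14:67418234-67418434, intron: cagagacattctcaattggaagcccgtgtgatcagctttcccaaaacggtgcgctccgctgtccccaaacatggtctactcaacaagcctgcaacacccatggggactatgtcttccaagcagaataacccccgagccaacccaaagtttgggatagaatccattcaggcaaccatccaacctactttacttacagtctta
Nfia region 1, chr4:97772169-97772369, upstream of the gene: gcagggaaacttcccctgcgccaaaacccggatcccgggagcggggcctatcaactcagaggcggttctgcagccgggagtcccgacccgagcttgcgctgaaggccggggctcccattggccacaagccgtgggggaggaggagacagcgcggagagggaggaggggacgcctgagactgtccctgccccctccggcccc
Nfia region 2, chr4:98004296-98004496, intron: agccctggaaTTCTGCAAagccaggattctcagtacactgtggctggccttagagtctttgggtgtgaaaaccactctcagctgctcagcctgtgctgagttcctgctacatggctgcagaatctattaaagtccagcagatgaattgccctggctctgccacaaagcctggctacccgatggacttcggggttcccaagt
Nfia region 4, chr4:98061202-98061402, intron: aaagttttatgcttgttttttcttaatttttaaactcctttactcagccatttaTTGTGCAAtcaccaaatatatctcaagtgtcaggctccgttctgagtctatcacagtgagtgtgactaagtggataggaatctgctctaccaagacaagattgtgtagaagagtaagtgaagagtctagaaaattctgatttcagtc
Nfia region 6, chr4:98120751-98120951, downstream of the gene: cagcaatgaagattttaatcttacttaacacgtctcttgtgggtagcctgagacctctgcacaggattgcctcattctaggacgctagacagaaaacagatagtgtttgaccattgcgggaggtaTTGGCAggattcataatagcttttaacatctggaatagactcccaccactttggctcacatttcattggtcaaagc
Nfib region 7, chr4:82404377-82404577, intron: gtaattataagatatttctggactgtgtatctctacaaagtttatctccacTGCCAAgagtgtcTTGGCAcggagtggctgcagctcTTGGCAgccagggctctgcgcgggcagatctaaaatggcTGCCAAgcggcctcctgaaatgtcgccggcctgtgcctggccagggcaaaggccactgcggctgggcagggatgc

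Nfia regions 2 and 4 each held 1 C/EBP match, Nfia region 6 held 1 NFI half-site, and Ebf2 region 10 and Nfia region 1 held none of the 4 motifs in these letters. Nfib region 7 held 4 NFI half-sites. Over all 104657 union regions, windows of the same length held the C/EBP motif in 14.3%, the EBF motif in 4.46%, the NFI half-site in 16.9% and the KLF motif in 5.97% of cases. Such a match is a description of the letters and not of binding, and where maxima are scattered the window stands for part of the libraries: it lay within 150 bp of the maximum in 22 of 22 libraries for Nfia region 1, 20 for region 4, 17 for region 2 and 9 for region 6, and in 12 libraries for Ebf2 region 10.

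Libraries held 40528 to 60523 peaks that covered 128 to 299 Mb of the genome. HC 3 and HHC 3 stood apart, with a median peak maximum of 17 and 18 against 30.0 or more in each of the other libraries, and their peaks covered 9.37% and 10.0% of the average locus, the lowest values of all. HH 1 came next, with a median maximum of 30.0 and 11.1% of the average locus covered. Its peaks covered 132 Mb of the genome, less than the 140 Mb of HHC 3. Locus results after weight loss are given with and without them, a choice made after seeing the data. Promoter peaks at the 12 adipocyte markers were present in every library, with a summed log2 signal above the floor of 38.6 (HHC 3) to 48.8. Of other cell types, libraries had such peaks at 2 to 7 of 12 macrophage, 3 to 12 of 12 endothelial, 0 to 7 of 10 mesothelial, 5 to 8 of 10 progenitor and 1 to 3 of 11 lymphocyte markers, and Cd3e, Cd4, Cd8a, Il7r, Cd2, Upk1b, Gpm6a and Bnc1 had none in any library. In these bulk nuclei, fewer cells with an open locus and less opening per cell cannot be told apart.

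Signal was compared after rank mapping, which gives all libraries the same distribution of log2 total signal, and differences are on that log2 scale. In H against C, 4 of the 9 loci had an adjusted p under 0.05, against 15.5% of all 17025 loci tested, and the same 4 had an unadjusted p under 0.05, against 33.6%. In the combined contrast of obese with control mice over both durations, which averages H minus C and HH minus CC_l, the adjusted rule was met by 2 loci against 10.2% of all and the unadjusted rule by 3 against 24.4%. The median difference of the 9 loci was 0.06 there, beside -0.02 for all loci. In HH against CC_l alone no member met the adjusted rule, against 0.0522% of loci, and 2 met the unadjusted one, both higher in HH, against 12.8%. Without HH 1 no member met the adjusted rule either, against 3.81% of loci. Loci of at least 200 kb, the class to which Ebf1, Ebf2, Zfp423, Nfia and Nfib belong, were called more often than shorter ones in H against C, in 25.1% of cases, and 214 of the 307 called were higher and 93 lower in H.

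**Figure D1:**
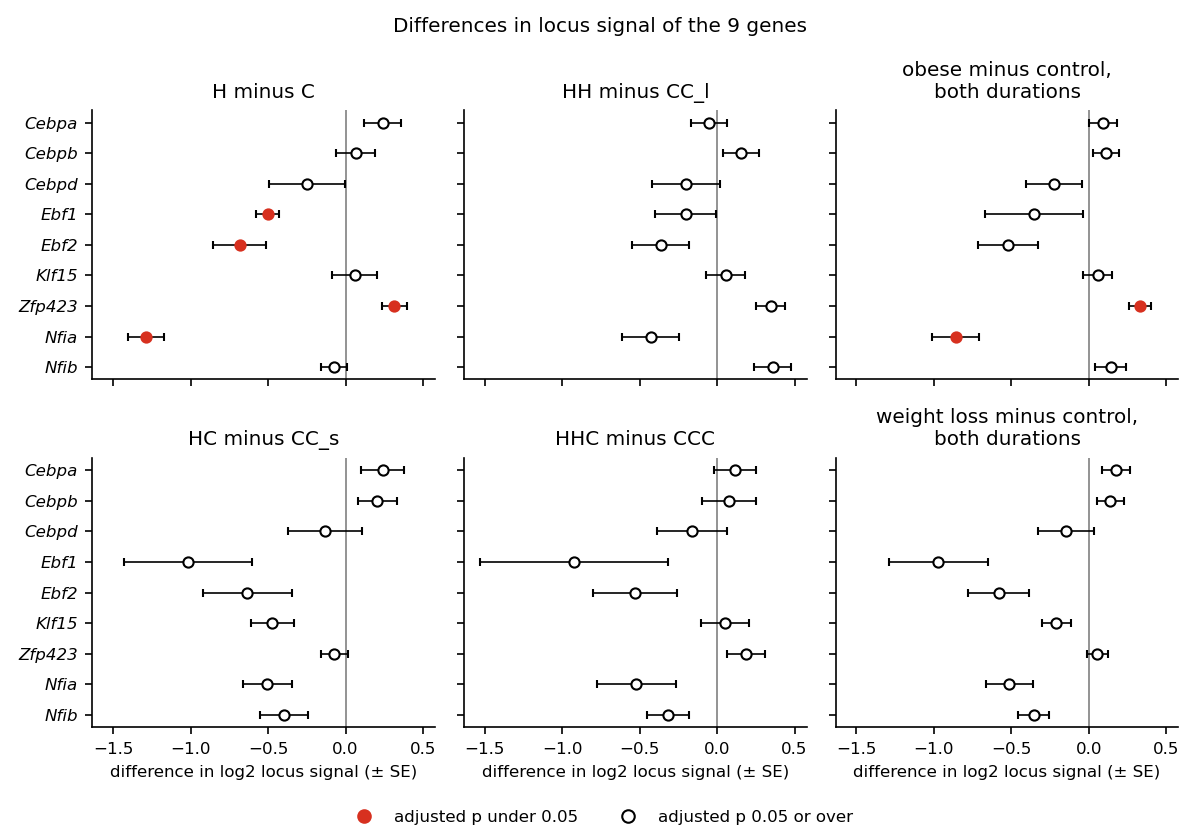
Difference in log2 locus signal of each gene between the groups named above each panel, with points for the estimate and bars for ± 1 SE, filled red where the adjusted p over all loci is under 0.05. The filled points are Ebf1, Ebf2, Zfp423 and Nfia in H minus C and Zfp423 and Nfia in the combined obese contrast, and no point is filled in the 3 weight loss panels.

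NFIA is a nuclear factor I protein that binds adipocyte enhancers together with PPARγ. Its locus, chr4:97752734-98138874, spans 386 kb and gave the largest difference among the 9 genes. It also holds the coding gene E130114P18Rik, and peaks cannot be assigned to one of the genes. The log2 signal was 21.51, 21.77 and 21.57 in the 3 C libraries and 20.14, 20.27 and 20.57 in the 3 H libraries. Every H library was below every C library. The difference was -1.29 ± 0.12 (SE), with an adjusted p of 0.00268, and it stayed called without each library in turn, between -1.41 and -1.20. In the longer course the signal was 21.04 and 21.57 in CC_l and 20.99, 21.01 and 20.62 in HH, again without overlap, at a difference of -0.43 ± 0.18 with an adjusted p of 0.394. The combined contrast gave -0.86 ± 0.15 with an adjusted p of 0.00214, and with the maximum signal of the locus in place of the total it was -0.29 with an adjusted p of 0.137.

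Peaks covered 56.0%, 73.2% and 83.3% of the Nfia locus in C and 23.4%, 25.8% and 31.3% in H. The average over all loci in the same libraries was 17.4% to 22.7% in C and 17.2% to 18.8% in H. Set against its own library, Nfia was covered 3.22 to 3.68 times as much as the average locus in C and 1.24 to 1.82 times in H. CC_l libraries had 33.6% and 61.9% and HH libraries 24.2%, 44.9% and 30.6%, which overlap. Over all libraries, the covered share of Nfia went with the covered length of the library with an r of 0.81 (n = 22, a description). That length was 197 to 210 Mb in H and 204 to 258 Mb in C, and its part in the result was not tested.

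**Figure D2:**
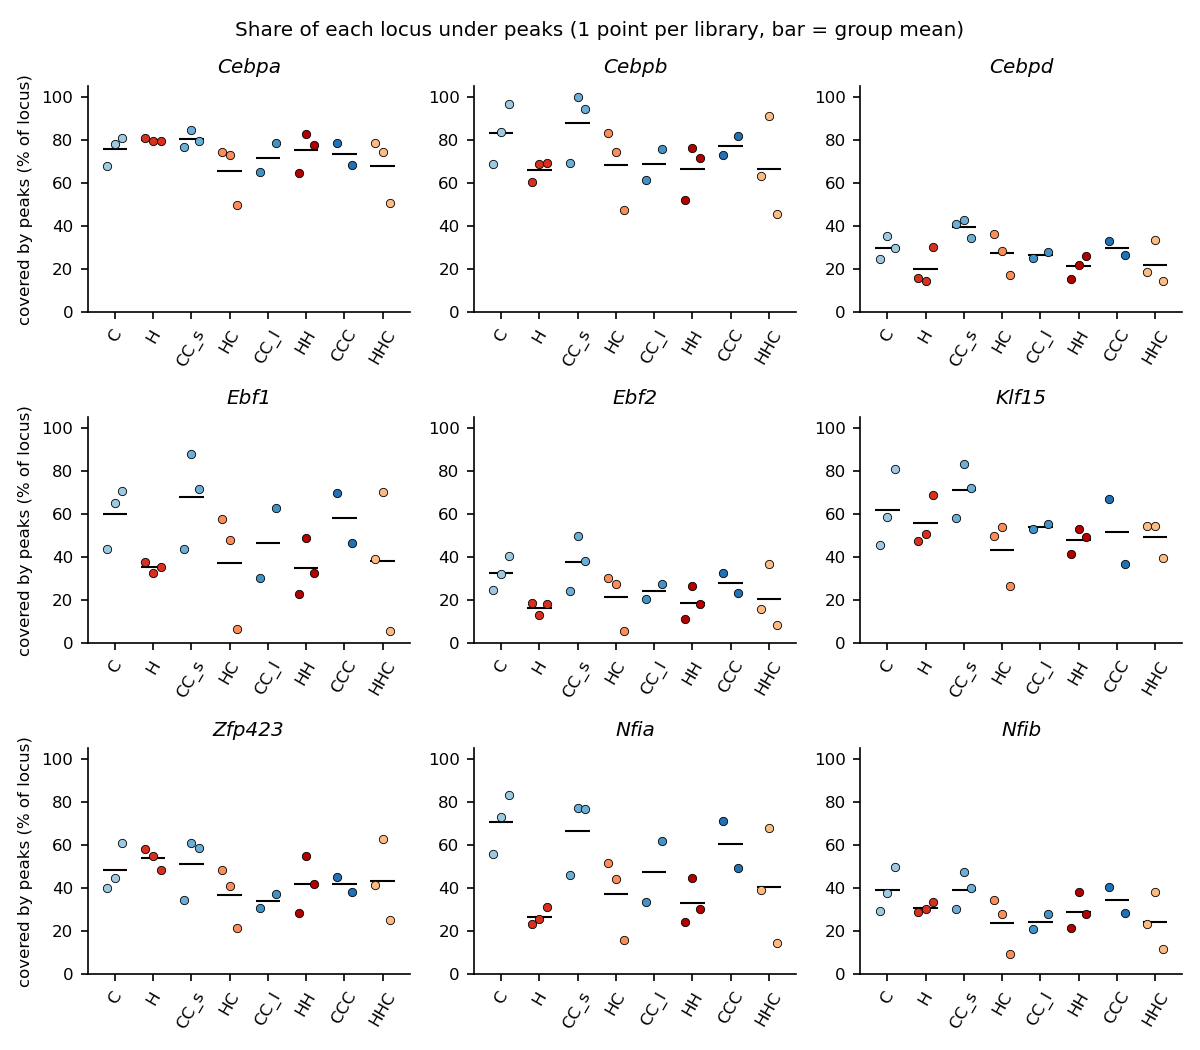
Percent of each locus (gene span with 20 kb on each side) covered by peaks, by group, with 1 point per library and a bar at the group mean. Nfia lay at 23.4% to 31.3% in H and 56.0% to 83.3% in C, and HC 3 and HHC 3 were the lowest points of their groups at Ebf1, with 6.57% and 5.98%.

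The stretches lost at Nfia did not form 1 block. In 1 kb bins, with a bin counted as covered when peaks took at least 500 bp of it, 193 bins of the locus were covered in every C library, and 50 of these, 25.9%, were covered in no H library. Over the genome the share was 6.5%. The longest unbroken stretch lost was 4 kb, chr4:97862001-97866000, within the gene, and no bin was gained. Of the 6 union regions of the locus, regions 1, 2, 4 and 6 were called lower in H, where the rule was an adjusted p below 0.05 and a log2 difference beyond 1.

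Nfia region 1, chr4:97744056-97933630, holds the start sites and had a log2 signal of 20.71, 20.81 and 20.95 in C and a mean of 19.68 ± 0.30 in H (SD, n = 3), where the groups do not overlap. The difference was -1.15 ± 0.16 with an adjusted p of 0.00684. Nfia region 2, chr4:97933857-98016608, in the introns, had 18.79, 18.82 and 19.21 in C and 17.72, 17.68 and 17.92 in H, a difference of -1.17 ± 0.14 with an adjusted p of 0.00528. The calls of regions 1 and 2 were lost with the maximum signal and held in the other 12 alternatives. Nfia region 4, named beyond the rule after its values were seen, was also intronic and fell by 1.45 on the log2 scale, with an adjusted p of 0.0214. That call was lost in 5 of 11 alternatives, among them without C 2 (0.0701) or H 1 (0.065). The H libraries of all 4 regions lay below their C libraries, which adds nothing to the calls, since the regions were picked by these same values.

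Nfia region 6, chr4:98113685-98126113, lies over the 3' end of the gene and beyond it, and is the region whose window with an NFI half-site is printed above. Its log2 signal was 16.37, 16.60 and 16.50 in C and 14.43, 14.12 and 15.53 in H, where the floor of the scale is 14.01. In the longer course it was 16.26 and 16.83 in CC_l and 14.44, 14.61 and 14.98 in HH. The groups did not overlap in either duration. It was the only member region called over both durations together, at -1.83 ± 0.35 with an adjusted p of 0.00396, against 3.13% of all regions called. With a region counted only where peaks cover at least 50% of it, the combined difference was -0.51 with an adjusted p of 0.474. Its call in H against C, at -1.79 ± 0.36 with an adjusted p of 0.0168, was lost under 4 of 12 alternatives: without C 2 (0.0717) or H 1 (0.057), with the maximum signal (0.104) and with no filter on low values (0.0537).

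**Figure D3:**
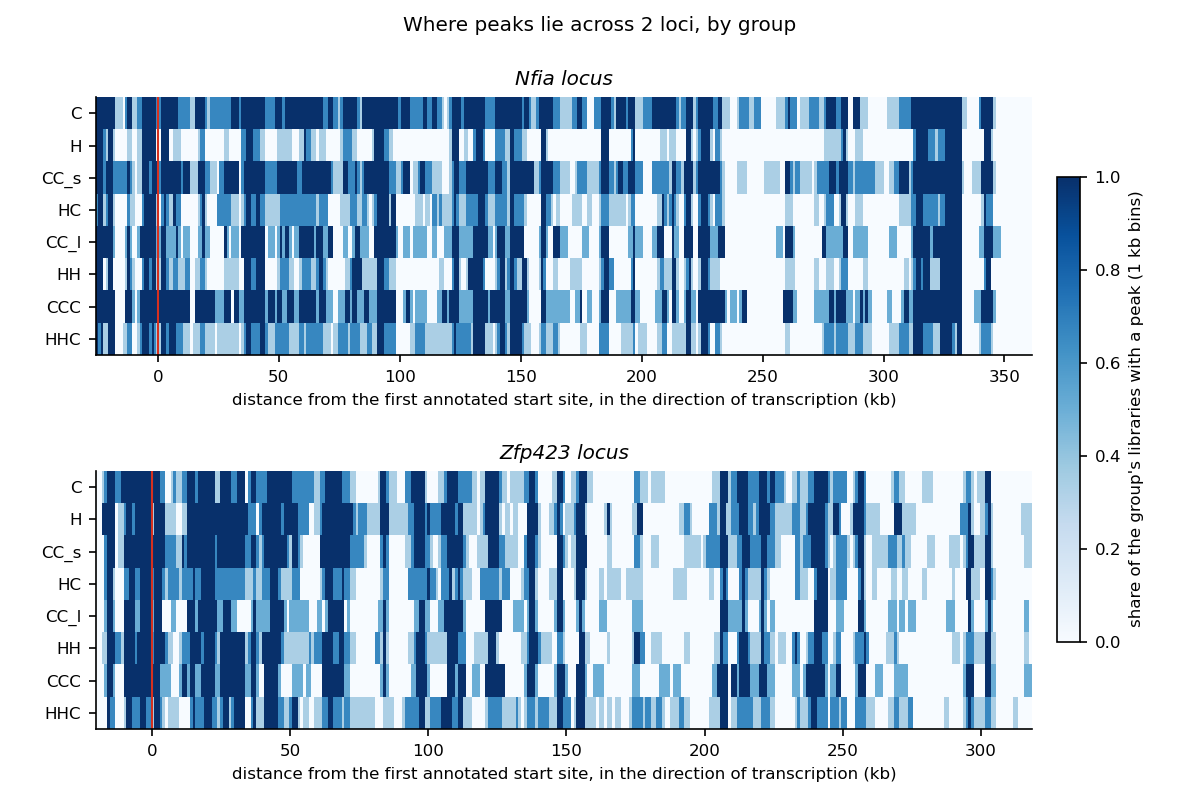
Share of each group's libraries with a peak (color scale, 0 to 1) in 1 kb bins across the Nfia and Zfp423 loci, plotted by distance in kb from the first annotated start site, which is the red line, with 1 row per group. At Nfia the row of H is pale in many bins where the row of C is dark, among them the 50 bins covered in every C and no H library, while at Zfp423 the H and C rows differ in 3 such bins, all gained.

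EBF1 and EBF2 are early B cell factors that act beside C/EBPα and PPARγ in preadipocytes, and EBF2 marks brown and beige fat. The Ebf1 locus, chr11:44597317-45028091, had a log2 signal of 21.03, 21.26 and 21.26 in C and 20.72, 20.65 and 20.67 in H, with the groups apart. The difference was -0.50 ± 0.08 with an adjusted p of 0.00814, a call that was lost with the maximum signal (adjusted p 0.851) and in the joint fit of all 22 libraries (0.569). In CC_l it was 20.84 and 21.46 and in HH 20.92, 21.16 and 20.75, which overlap. The combined obese contrast gave -0.35 ± 0.32 with an adjusted p of 0.564. Peaks covered 59.9% ± 14.1 of the locus in C and 35.3% ± 2.71 in H (SD, n = 3 each). Of 164 bins covered in every C library, 23 were covered in no H library, 14.0% against 6.5% over the genome.

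The Ebf2 locus, chr14:67213292-67450918, had a log2 signal of 19.34, 19.51 and 19.66 in C and 19.01, 18.44 and 19.01 in H, a difference of -0.68 ± 0.17 with an adjusted p of 0.033. The values were 19.39 and 19.48 in CC_l and 18.76, 19.35 and 19.10 in HH. The HH libraries were below both CC_l libraries, and the combined difference of -0.52 ± 0.19 had an adjusted p of 0.0961. Covered share was 32.5% ± 8.04 in C and 16.6% ± 3.14 in H (SD, n = 3 each). Of 50 bins covered in every C library, 10 were covered in no H library, 20% against 6.5% over the genome. The Ebf2 call did not hold in 4 of the 6 fits without 1 of the libraries, at adjusted p of 0.0993 without C 2, 0.0744 without C 3, 0.0613 without H 1 and 0.0694 without H 2. It was also lost with the maximum signal, with the gene span alone and in the joint fit.

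Inside these loci the regions did not move alike. Ebf2 region 10, chr14:67411313-67420236, in an intron 184 kb from the nearest start site, was the other called region, with a log2 signal of 15.68, 15.49 and 16.14 in C and 14.55, 14.01 and 14.94 in H, a difference of -1.27 ± 0.31 with an adjusted p of 0.0309. Its call held with the replicate block and without H 3, and was lost in the other 10 alternatives that gave it a value, among them leaving out any 1 of the other 5 libraries (adjusted p 0.0711 to 0.0866). Ebf1 region 5, chr11:44971514-44987626, in an intron, had an opposite sign to its locus. It had a log2 signal of 16.36, 16.52 and 16.89 in C and 17.11, 17.17 and 17.24 in H, and 16.41 and 16.83 in CC_l and 17.29, 17.00 and 17.35 in HH. The combined difference was 0.59 ± 0.15 with an adjusted p of 0.0192, which is under the log2 difference of 1 that a region call asks for. After weight loss it was 16.37, 16.60 and 16.08 in HHC and 17.25 and 17.26 in CCC, which did not overlap, and 17.06, 17.12 and 16.48 in HC and 16.88, 17.05 and 17.22 in CC_s, which did. The differences were -0.90 ± 0.27 (adjusted p 0.753) and -0.16 ± 0.24 (adjusted p 0.796), and neither was called.

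The regions over start sites were read by the same rule. Ebf2 region 3, chr14:67227827-67262226, had a log2 signal of 18.00, 18.22 and 17.81 in C and 17.48, 16.78 and 17.56 in H, and 17.80 and 18.19 in CC_l and 17.24, 17.30 and 17.47 in HH. The obese libraries lay below the controls of their age in both courses. The combined difference was -0.70 ± 0.17 with an adjusted p of 0.0147, short of a log2 difference of 1. After weight loss it was -0.69 ± 0.17 with an adjusted p of 0.0393, and -0.50 with an adjusted p of 0.0956 without HC 3 and HHC 3. Ebf1 region 1, chr11:44607478-44671541, had -0.58 ± 0.12 in H against C with an adjusted p of 0.0182, and -0.29 with an adjusted p of 0.444 over both durations.

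ZFP423 is a zinc finger protein that restrains the thermogenic program of white adipocytes. The Zfp423 locus, chr8:87641810-87979595, moved the other way from Nfia and the EBF genes. Its log2 signal was 20.69, 20.74 and 20.80 in C and 21.10, 21.18 and 20.89 in H. In the longer course it was 20.65 and 20.50 in CC_l and 20.85, 21.04 and 20.87 in HH. Every obese library was above every control library of its age. The difference was 0.32 ± 0.08 in H against C with an adjusted p of 0.0387, 0.35 ± 0.09 in HH against CC_l with an adjusted p of 0.199, and 0.33 ± 0.07 over both with an adjusted p of 0.00582. The H against C call was lost without C 1 (adjusted p 0.0818), C 2 (0.103), H 1 (0.123) or H 2 (0.126). It was also lost with the replicate block, in the joint fit of all 22 libraries and with the gene span alone. The combined call held without each of its 11 libraries and was lost with the gene span alone (0.0654). With the maximum signal of the locus in place of the total the sign turned, to -0.10 in H against C and -0.14 over both.

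Zfp423 region 10, chr8:87789993-87978240, which holds start sites, had a combined obese difference of 0.36 ± 0.08 with an adjusted p of 0.01 and so did not reach the size a region call asks for. The covered share of the locus was 48.7% ± 11.1 in C and 54.1% ± 4.95 in H (SD, n = 3 each), and the ranges overlap. Of 91 bins covered in no C library, 3 were covered in all H libraries, which is 3.3% against 2.24% over the genome. In HH the count was 6 of 162 bins covered in no CC_l library, 3.7% against 1.13%.

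NFIB is the other nuclear factor I protein among the members, and its gene lies on the same chromosome as Nfia. The Nfib locus, chr4:82270173-82725750, had a log2 signal of 20.68, 20.77 and 20.88 in C and 20.56, 20.77 and 20.78 in H, which overlap. In the longer course it was 20.45 and 20.56 in CC_l and 21.06, 20.86 and 20.68 in HH, with the groups apart. The difference there was 0.36 ± 0.12 with an adjusted p of 0.283, and the combined contrast gave 0.14 ± 0.10 with an adjusted p of 0.422. With the maximum signal of the locus in place of the total, both differences turned negative. Nfib region 11, chr4:82570930-82575582, in an intron, had a peak in all 3 HH and in neither CC_l library, as well as in 2 of 3 H and in no C library, and was the only member region gained in this sense, named for that after its values were seen.

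C/EBPα, the master factor of the mature fat cell, has a single-exon gene with 79.3% to 80.7% of its locus covered in H and 67.9% to 81.0% in C. The log2 signal of the Cebpa locus, chr7:35099293-35141928, ranged over all libraries from 19.25 through a median of 19.70 to 19.94. The combined obese difference was 0.09 ± 0.09 with an adjusted p of 0.608. Cebpb, whose protein starts the cascade, lies at chr2:167668915-167710418 and ranged from 18.63 through 19.01 to 19.26, with a combined difference of 0.11 ± 0.09 and an adjusted p of 0.488. The Cebpb locus also holds part of Tmem189, and peaks cannot be assigned to one of the genes.

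Cebpd, the partner of Cebpb in the first step, lies at chr16:15867286-15911031 beside Spidr and was the least covered of the C/EBP loci, at 14.4% to 43.0%. Its log2 signal ranged from 17.49 through 18.20 to 19.00, and the combined obese difference was -0.23 ± 0.18 with an adjusted p of 0.506. Klf15, whose factor is induced late in adipogenesis, lies at chr6:90442576-90495238 beside Aldh1l1 and ranged from 18.78 through 19.06 to 19.49, with a combined obese difference of 0.06 ± 0.09 and an adjusted p of 0.796. The H and C libraries overlapped at all 4 of these loci. The promoters of the 9 genes, taken as 2000 bp on each side of annotated start sites, had signal above the floor in every library. None was called over both durations in obesity, against 0.899% of all promoters, or after weight loss, against 0.184%.

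The regions over the start sites of these 4 genes, Cebpa region 2, Cebpb region 1, Cebpd region 1 and Klf15 region 1, had combined obese differences of 0.03, 0.01, -0.15 and 0.10, and weight loss differences of 0.12, 0.04, -0.04 and -0.22, with adjusted p of 0.22 or more. Cebpd region 2, chr16:15904831-15909781, downstream of the gene, was the region of that locus with the smallest p. It lay near the floor, at 14.01 to 15.11 in all libraries, and its weight loss difference was -0.66 ± 0.16 with an adjusted p of 0.0338, short of a log2 difference of 1, and -0.57 with an adjusted p of 0.0874 without HC 3 and HHC 3.

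**Figure D4:**
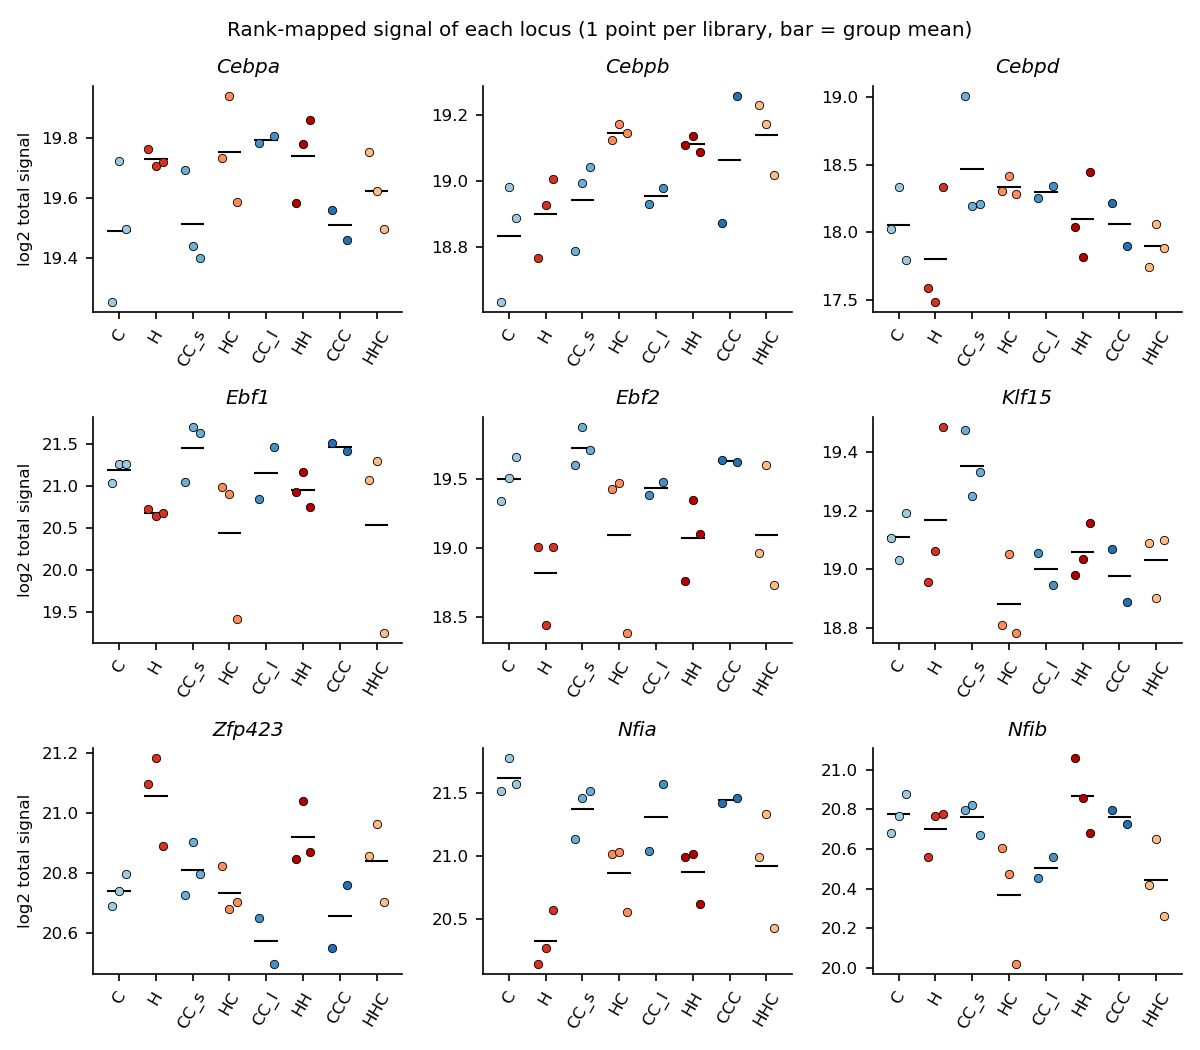
Rank-mapped log2 total signal of each locus by group, with 1 point per library and a bar at the group mean, on axes that do not start at 0. At Nfia the H points lie at 20.14 to 20.57 and the C points at 21.51 to 21.77, and at Zfp423 the H points lie at 20.89 to 21.18 and the C points at 20.69 to 20.80.

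Across the member loci as a whole, 92 of 700 bins covered in every C library were covered in no H library, which is 13.1% against 6.5% over the genome, and Nfia held 50, Ebf1 23 and Ebf2 10 of them. Gains in H were 3 of 277 bins, 1.08% against 2.24%. In HH against CC_l, 28 of 516 bins were lost, 5.43% against 6.98%, and 14 of 649 gained, 2.16% against 1.13%. By signal, the 2 groups did not overlap at 4 of 9 loci in H against C, where 38.8% of all loci did not, and at 5 of 9 in HH against CC_l, where it was 32.8%. Of the member regions, 5 of 36 tested were called in H against C, where 8.28% of all regions were, and 0 of 38 in HH against CC_l by limma, where 0.0% were and 1 member, Nfia region 6, had an unadjusted p under 0.01 with that fold, against 2.68% of all. As whole regions, present in all libraries of 1 group and absent from the other, 0 of 56 were gained and 0 lost in H (background 1.57% and 1.1%), and 1 was gained and 0 lost in HH (background 0.983% and 1.44%).

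Marker promoters were set beside the diets with no test. The adipocyte sum was 42.5 to 46.1 in C and 47.9 to 48.8 in H, without overlap, and 43.4 to 44.2 in CC_l and 41.5 to 48.6 in HH, which overlap. Promoter peaks at mesothelial markers were present for 2 to 5 of 10 genes in C and 0 to 1 in H, with a summed log2 signal above the floor of 0 to 4.41 and 0 to 1.02, and for 3 of 10 in both CC_l libraries and 0 to 2 in HH. The endothelial sum was 6.69 to 8.14 in C and 8.46 to 11.5 in H, and 6.97 to 7.44 in CC_l and 7.85, 8.16 and 26.9 in HH, where the highest library, HH 1, had all 12 endothelial markers open. The macrophage sums overlapped, at 5.25 to 6.19 in C and 3.38 to 5.28 in H, and at 4.19 to 5.06 in CC_l and 3.72 to 6.05 in HH. Their part in the differences at Nfia, Ebf1, Ebf2 and Zfp423 was not tested.

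After weight loss, the Ebf1, Ebf2, Klf15, Nfia and Nfib loci were lower than in controls at an unadjusted p under 0.05 in the combined contrast of HC with CC_s and HHC with CCC. These are 5 of 9, against 22.7% of all loci, and with adjustment there were 0 of 9, against 3.09%. That count of 0 depended on single libraries: it was 4 without HHC 2 (Ebf1, Ebf2, Nfia and Nfib, with adjusted p of 0.0261 to 0.0442), against 5.04% of all loci in the same fit, 1 without CC_s 1 (Nfia, 0.0398), against 7.75%, and 1 without HC 1 (Nfib, 0.0359), against 2.72%. The median difference of the 9 loci was -0.21, beside -0.02 for all loci and 0.26 for all loci of at least 200 kb. In HC against CC_s 4 loci met the unadjusted rule, against 10.1%, and none the adjusted rule, against 0.0%. In HHC against CCC none met either rule, against 4.12% and 0.0%.

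Without HC 3 and HHC 3, 5 loci again met the unadjusted rule in the combined contrast, against 17.4% of all, with Ebf1, Ebf2, Nfia and Nfib lower and Cebpa higher, and 0 met the adjusted rule, against 3.31%. In HC against CC_s without HC 3 the unadjusted rule was met by 5, with Ebf1, Klf15, Nfia and Nfib lower and Cebpa higher, against 13.8%, and the adjusted rule by 0, against 0.394%. In HHC against CCC without HHC 3 it was 2, Ebf1 lower and Zfp423 higher, against 8.4%, and 0 with adjustment, against 0.0%. The Klf15 difference over both durations was -0.21 ± 0.09 with all libraries and -0.20 without the 2, that of Cebpa 0.25 without them, Cebpb 0.17, Cebpd -0.13 and Zfp423 0.10.

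At Nfia the log2 signal was 21.14, 21.46 and 21.51 in CC_s and 21.01, 21.03 and 20.55 in HC, with the groups apart. In the longer course it was 21.42 and 21.46 in CCC and 20.99, 21.33 and 20.43 in HHC, also apart. The combined difference was -0.51 ± 0.15 with an adjusted p of 0.0707, and -0.31 with an adjusted p of 0.20 without HC 3 and HHC 3. With the maximum signal of the locus in place of the total, the combined difference and that of HC against CC_s turned positive. Peaks covered 46.3%, 77.2% and 76.5% of the locus in CC_s, 51.8%, 44.5% and 16.1% in HC, 71.3% and 49.4% in CCC and 39.3%, 67.8% and 14.4% in HHC. Nfia region 3, a small intronic region, had a peak in both CCC libraries and in no HHC library, and was the only member region lost in this sense, named for that after its values were seen. It also had a peak in 2 C libraries and 1 CC_s library.

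The Ebf1 signal was 21.04, 21.69 and 21.62 in CC_s and 20.99, 20.90 and 19.41 in HC, and 21.51 and 21.42 in CCC and 21.07, 21.29 and 19.25 in HHC. The weight loss groups lay below their controls in both courses, and the lowest value of each was HC 3 and HHC 3. The combined difference was -0.97 ± 0.32 with an adjusted p of 0.0954, and -0.40 with an adjusted p of 0.129 without those 2 libraries. For Ebf2 it was -0.58 ± 0.19 with an adjusted p of 0.0999, and -0.31 without them. The Nfib locus had 20.80, 20.82 and 20.67 in CC_s and 20.61, 20.48 and 20.02 in HC, and 20.80 and 20.73 in CCC and 20.42, 20.65 and 20.26 in HHC. That is -0.36 ± 0.10 with an adjusted p of 0.0598, and -0.22 without the 2 libraries, and the groups were apart in both courses.

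Klf15 had 19.48, 19.25 and 19.33 in CC_s and 18.81, 19.05 and 18.78 in HC, without overlap. In the longer course it was 19.07 and 18.89 in CCC and 19.09, 18.90 and 19.10 in HHC, which overlap. Zfp423, higher in the obese groups, had 20.73, 20.90 and 20.80 in CC_s and 20.82, 20.68 and 20.70 in HC, and 20.55 and 20.76 in CCC and 20.86, 20.96 and 20.70 in HHC. Its combined weight loss difference was 0.06 ± 0.07 with an adjusted p of 0.62. Cebpa had 0.18 ± 0.09 with an adjusted p of 0.252, Cebpb 0.14 ± 0.09 with an adjusted p of 0.321 and Cebpd -0.15 ± 0.18 with an adjusted p of 0.622.

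In the weight loss groups, HC 3 had promoter peaks at 7 of 12 macrophage and 6 of 12 endothelial markers, and HHC 3 at 6 and 8 of them and at 7 of 10 mesothelial markers. The macrophage sum was 4.78 to 5.89 in CC_s and 3.87 to 11.8 in HC, and 4.73 to 5.41 in CCC and 5.05 to 10.9 in HHC, and overlapped in both courses. The mesothelial sum was 0 to 0.82 in CCC and 1.31 to 8.94 in HHC, which do not overlap, and 0 to 4.53 in CC_s and 1.84 to 4.06 in HC, which overlap. The endothelial sum was 7.20, 6.51 and 7.21 in CC_s and 9.32, 8.14 and 14.7 in HC, so that every HC library was above every CC_s library, while it was 6.52 and 12.0 in CCC and 6.20, 8.05 and 16.8 in HHC, which overlap. HHC 3 had the highest progenitor sum, 18.2, and the highest lymphocyte sum, 5.27, of the 22 libraries. HHC 1 had 7 of 12 macrophage markers as well. The adipocyte sum was 42.0 in HC 3 and 38.6 in HHC 3, the lowest of their groups. The part of these markers in the weight loss differences was not tested.

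The bins that defined the loss in H were then read in the libraries that had no part in choosing them. Of the 50 Nfia bins, CC_s libraries had 54%, 100% and 88% covered and HC libraries 50%, 38% and 8%. The lowest HC share was that of HC 3. Peaks covered 128 to 235 Mb of the genome in HC and 181 to 299 Mb in CC_s. In CC_l the shares were 14% and 66% and in HH 6%, 42% and 14%, and in CCC they were 74% and 36% and in HHC 22%, 72% and 6%, so that both older pairs overlapped. Of the 23 Ebf1 bins, 39.1% to 100% were covered in CC_s and 0% to 73.9% in HC. In the longer course it was 13.0% to 78.3% in CC_l and 4.35% to 43.5% in HH. It was 39.1% to 91.3% in CCC and 13.0% to 87.0% in HHC. Of the 10 Ebf2 bins, 70% to 100% were covered in CC_s and 0% to 90% in HC. In the longer course it was 50% to 80% in CC_l and 0% to 60% in HH, and 60% to 90% in CCC and 0% to 90% in HHC. The groups of each of these Ebf1 and Ebf2 pairs overlapped, and the HC values of 0% were those of HC 3. No test was run on these shares, and the same shares over all bins lost in H were not computed. Whether these loci differ from such bins elsewhere is therefore not known.

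**Figure D5:**
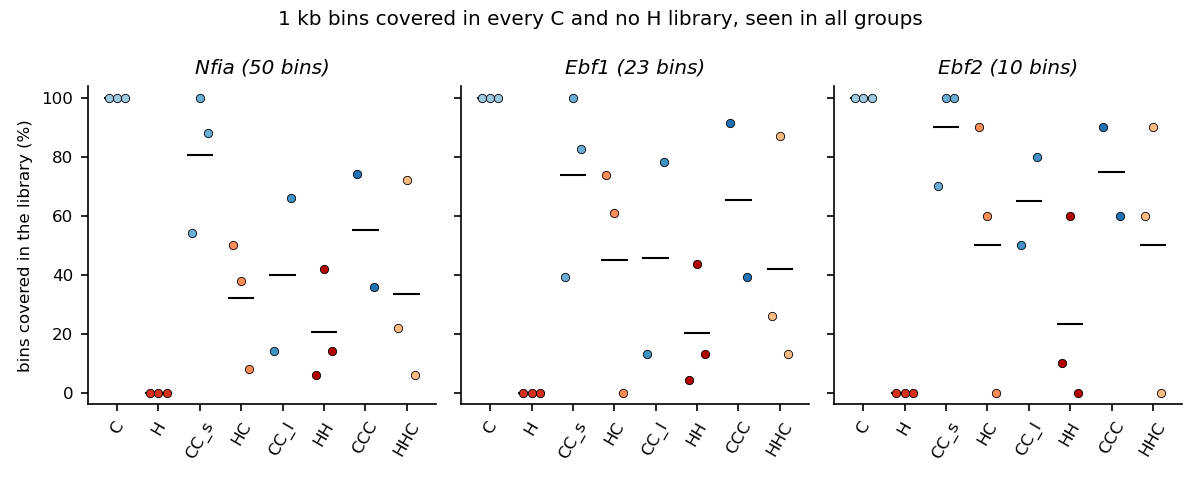
Percent of the 1 kb bins covered in every C and in no H library that were covered in each library, by group, at Nfia, Ebf1 and Ebf2, with 1 point per library and a bar at the group mean. C and H are at 100 and 0 by construction, and at Nfia the HC points are at 8% to 50% and the CC_s points at 54% to 100%.

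For the member regions, 0 of 36 tested were called in HC against CC_s, where 0.0% of all were, 0 of 39 in HHC against CCC, where 0.0% were, and 0 of 46 over both, where 0.983% were. By limma's unadjusted p under 0.01 with that fold, the counts were 0 (background 2.54%), 0 (0.706%) and 1 (1.94%), the 1 being Nfia region 6 at -1.21 ± 0.35 with an adjusted p of 0.0855. Without HC 3 and HHC 3, Nfia region 6 had -0.69 with an adjusted p of 0.19. The smallest p was that of Nfib region 9, over the start sites, with a combined difference of -0.33 ± 0.07 and an adjusted p of 0.0186, short of the log2 difference of 1, and -0.29 with an adjusted p of 0.0359 without HC 3 and HHC 3. Signal did not overlap between the 2 groups at 6 of 9 loci in HC against CC_s (Cebpb, Ebf1, Ebf2, Klf15, Nfia and Nfib), where 17.3% of all loci did not, and at 4 of 9 in HHC against CCC, where 25.5% did not. Whole regions gained and lost in HC were 0 and 0 of 56 (background 0.184% and 0.898%), and in HHC 0 and 1 (background 0.28% and 1.33%). Of bins covered in every CC_s library, 48 of 744 were covered in no HC library, 6.45% against 5.66%, and 1 of 198 was gained, 0.505% against 0.275%. In HHC against CCC 36 of 716 bins were lost, 5.03% against 6.73%, and 2 of 474 gained, 0.422% against 0.485%. Without HC 3 or HHC 3, groups were apart at 7 of 9 loci in HC against CC_s (background 31.0%) and 6 of 9 in HHC against CCC (39.3%), bins lost were 51 of 744 (6.85% against 6.23%) and 41 of 716 (5.73% against 7.47%), and bins gained 4 of 198 (2.02% against 2.19%) and 30 of 474 (6.33% against 2.86%).

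Other regulators of adipogenesis were read from 3 lists, whose counts in H against C stand beside the 15.5% of all loci called there. Of 7 relatives of the member families, Cebpe rose in H against C by 1.55 ± 0.38 with an adjusted p of 0.0325 and Nfix fell, at -0.38 ± 0.10 with an adjusted p of 0.0463. Cebpe, a factor of granulocyte maturation, had a mean log2 signal of 15.89 in H and 14.34 in C, near the floor for loci of 13.77, and its difference in HH against CC_l was -0.07. Nfix, the NFI gene of muscle and brain, was also lower in the combined obese contrast, at -0.33 with an adjusted p of 0.046. Of 13 factors that promote adipogenesis, 3 fell in H, Zfp467, Srebf1 and Bcl6, and none rose. In HH against CC_l the difference was -0.20 for Zfp467, -0.14 for Srebf1 and 0.25 for Bcl6, none of them called, and over both durations it was -0.34 for Zfp467 with an adjusted p of 0.0729 and -0.06 for Bcl6 with an adjusted p of 0.887. Srebf1, the factor of fatty acid synthesis genes, fell in obesity over both durations, at -0.34 ± 0.10 with an adjusted p of 0.0334, and was also lower after weight loss, at -0.50 ± 0.10 with an adjusted p of 0.0104, and at -0.46 with an adjusted p of 0.0263 without HC 3 and HHC 3. It was the 1 gene of the 3 lists called after weight loss, where 3.09% of all loci were.

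Of 8 factors that restrain adipogenesis, 0 were called in each of the 6 comparisons by the adjusted rule in limma. In H against C 4 of them had an unadjusted p under 0.05, with 2 higher and 2 lower, against 33.6% of all loci. The smallest adjusted p values there were those of Klf3, at -0.41 ± 0.13 with an adjusted p of 0.0607, and of Foxo1, at 0.54 ± 0.20 with an adjusted p of 0.105. Median differences of the lists in H against C were -0.09 for the relatives, -0.06 for the promoting and -0.29 for the restraining factors, beside -0.02 for all loci. In HH against CC_l they were -0.09, 0.27 and 0.14, beside -0.04 for all loci, and over both durations -0.09, 0.16 and 0.02, beside -0.02.

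Among the 9 genes, the locus signals of Ebf2 and Nfia went together most closely across the 22 libraries, with a Pearson r of 0.80, followed by Ebf1 and Ebf2 with 0.80 and Ebf1 and Nfia with 0.72. These are descriptions across libraries that share the conditions and the covered length, with which the signal of Ebf1 had an r of 0.69, that of Ebf2 0.68, that of Nfia 0.47 and that of Cebpa -0.21. The gene on another chromosome whose locus signal was most like that of Nfia was Pla2g15, with an r of 0.95. For Ebf1 it was Tm9sf3 with 0.94, for Ebf2 4930556J24Rik with 0.93 and for Nfib Cpvl with 0.86. The nearest pattern to Cebpa was that of Cidec, a lipid droplet protein gene, with 0.84, and to Zfp423 that of Tet3 with 0.84.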

How the data were processed

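ATAC-seq peak lists of 22 libraries were used, 1 per library, and each library is an individual animal by the series' design text. The authors trimmed the reads with Trim Galore 0.6.6, aligned them with Bowtie2 2.4.4 to mm10 (GRCm38), and called peaks per library with SEACR 1.3 in stringent mode at a threshold of 0.01. The deposited values are signal, as the coverage summed over a peak and its maximum, and no normalization is stated. They hold no read counts, so depth is not known and no interval from counting was computed. The number of unmatched columns was 0, and 1 mitochondrial peak per library was set aside.

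Peaks of all libraries were merged where they shared at least 1 bp. Locus signal is the total signal of the peaks in a locus, each scaled by the part of its length inside. Values were rank-mapped over 30083 regions, 16741 loci or 12422 promoters, and the rest were set to a floor. Differences were fitted with limma 3.58.1 (lmFit, eBayes with a trend) in R 4.3.3 over all features, with Benjamini-Hochberg adjustment, on the 2 groups of a pair or, for combined contrasts, on all 22 libraries in 8 groups. Regions and promoters also needed an absolute log2 difference over 1. The rest used Python 3.11.15, numpy 2.4.6 and pandas 2.3.3. On simulated data of 23629 regions with 200 changed by 2 on the log2 scale, 162 of these were called in a comparison of H with C, of 166 calls in all. For 16011 loci it was 176 of 180. How often smaller differences, such as those of the member loci, would be called was not tested.

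The regions named in each locus are those called (at most 3, smallest p first) or else the one of smallest p, with those over start sites, and regions named beyond this are said to be so in the text. Genes of the lists are named where called, or else the 2 of smallest p. The members, lists and tests were chosen with earlier results of these data known. Replicate numbers did not pair the libraries: correlations of the deviations of same-numbered libraries ran from -0.178 to 0.223 over the 4 pairs of groups, and in the pairs with 3 shared numbers not all were above 0.1. Alternatives were another signal column, scaling, peak list, filter, overlap, locus extent and measure, a joint fit, a replicate block, and leaving out replicates.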

Additional observations from a re-analysis of the deposited data

Results flagged for a closer look

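The obese and weight loss differences were set against each other between the 2 durations, as the long-course minus the short-course difference in the fit of all 22 libraries. At the Nfia locus the obese difference was larger in size in the short course, and long minus short was 0.86 ± 0.30 (SE). At the Nfib locus the same contrast was 0.43 ± 0.20, with the obese difference below 0 in the short and above 0 in the long course. At the Klf15 locus the weight loss difference gave 0.52 ± 0.19. At the Ebf2 promoter it gave -0.63 ± 0.22. Each had an unadjusted p under 0.05 in limma and an adjusted p of 1.0, and 2.71% of all loci had such an unadjusted p for obesity, 2.4% for weight loss, and 3.73% of promoters for weight loss. No locus or promoter of any gene passed the adjusted threshold in these contrasts.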

How the results depend on the processing

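The call of the Nfia locus in H against C held under every alternative run, and the Ebf1 call under all but the maximum signal (adjusted p 0.851) and the joint fit of all 22 libraries (0.569). The 4 loci called in H against C became 1 with the maximum signal (Nfia), 2 with the gene span alone and 1 in the joint fit, and 2 to 4 when a replicate was left out, 2 each without C 2, H 1 or H 2, where 4.25%, 4.5% and 4.07% of all loci were called. The 2 loci called in the combined obese contrast became 0 with the maximum signal and 1 with the gene span alone. After weight loss the count of loci was 0, and 0 to 4 without a replicate, 1 without CC_s 1, 1 without HC 1 and 4 (Ebf1, Ebf2, Nfia and Nfib) without HHC 2, against 7.75%, 2.72% and 5.04% of all loci. The 5 regions called in H against C became 1 with the maximum signal, higher in H, 3 with the 20000 strongest peaks, 3 where 50% of a region had to be covered, 2 with no filter and 2 to 6 without a replicate, 2 each without C 2 or H 1, where 3.11% and 3.89% of all regions were called. For the 1 region of the combined obese contrast the values were 2 with the strongest peaks, 0 with 50% covered and 1 to 2 without a replicate, and for the 0 after weight loss 0 to 1, with 1 without HHC 2, against 1.28% of all regions. Leaving out HC 3 and HHC 3, an alternative chosen after seeing the data, kept the counts of called loci, regions and promoters after weight loss at 0. With the replicate block, 3 loci and 6 regions were called in H against C, Zfp423 having an adjusted p of 0.0646, and the block changed no other count. The libraries share only a number. Where no share of all features stands beside a count, a change in member calls cannot be told from a change everywhere.

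Signs turned as follows, none of them past the adjusted threshold, and the cause was not tested. With the maximum signal the combined obese difference was -0.057 for Cebpa, -0.25 for Cebpb, 0.16 for Cebpd, 0.0094 for Ebf1, -0.064 for Klf15, -0.14 for Zfp423 and -0.31 for Nfib, and the weight loss difference -0.26 for Zfp423 and 0.064 for Nfia. In the pairs it was -0.10 for Zfp423 in H against C, 0.053 for Klf15 and 0.019 for Nfia in HC against CC_s, and -0.17 for Zfp423 and -0.46 for Nfib in HH against CC_l. With the gene span alone it was -0.10 for Cebpa and 0.045 for Cebpd in obesity, and -0.46 for Cebpb and 0.29 for Cebpd after weight loss. With the covered length it was -0.019 for Cebpb in obesity and 0.0056 for Klf15 after weight loss. The Klf15 obese difference was -0.0065 with median-centred signal and between -0.022 and 0.11 without a replicate, and Zfp423 after weight loss was -0.0089 with the 20000 strongest peaks. Of the other single-locus and single-region alternatives, 478 kept sign and side of the threshold, 42 lost the call and 6 gained it.

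Groups of 2 or 3 libraries, unknown depth and peak lists cut at each library's own threshold limit what can be told. A peak absent from a list is below that threshold and need not be closed chromatin.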
